A study of Oryzias latipes with 8 samples.

Results

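Cells sorted for the neuroepithelium of the medaka optic tectum were compared with cells of the same structure sorted by a line that marks progenitors past division and neurons. The comparison sets 3 libraries of wdr12 GFP-positive cells against 3 libraries of ebf3 GFP-positive cells, which are 6 of the 8 libraries of the study. They were chosen by the line and the sort that their labels name. Medaka (Oryzias latipes) aged 1 month were used, and the optic tectum is the roof of their midbrain, which receives input from the eye. For a preparation 30 tecta were dissociated, cells were sorted by the green fluorescent protein (GFP) of a transgenic line, and libraries were made from 4 ng of RNA and read as single reads of 50 bases. In wdr12 GFP-positive cells (n = 3) the promoter of wdr12, a gene of ribosome assembly, drives GFP in the neuroepithelium. In ebf3 GFP-positive cells (n = 3) GFP of the ebf3 line labels post-mitotic progenitors together with neurons that have differentiated, and the study used them as a further control. The remaining group, wdr12 GFP-negative cells (n = 2), mixes amplifying progenitors, neurons and glia of the wdr12 line, and it serves below to show where the ebf3 GFP-positive cells stand apart from the tectum at large. The 2 sorts compared come from different lines, so a difference between lines and a difference between cell types cannot be told apart.

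In the fish tectum, growth continues after hatching from a rim of neuroepithelial cells at the margin of the structure. These cells are elongated, joined by apical junctions and kept in division by signals such as Notch and Wnt, and their daughters move inward, leave the cell cycle and become neurons or glia. Factors of the Ebf family act as neurons leave the cycle, migrate and differentiate.

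The depth was 8511300 to 11580643 counts for wdr12 GFP-positive and 5247875 to 7708013 counts for ebf3 GFP-positive libraries. Genes with a count numbered 14891 to 16439 in wdr12 GFP-positive and 15208 to 15913 in ebf3 GFP-positive libraries. Levels below are CPM, read counts scaled to the size of each library and TMM normalised. Across genes, which are not independent replicates, log2 CPM correlated at r of 0.931 to 0.935 within wdr12 GFP-positive libraries, 0.925 to 0.962 within ebf3 GFP-positive libraries and 0.796 to 0.840 between them. The labels do not say whether replicates are separate pools of fish, so p-values here reflect only how much these libraries vary, and that variation may be technical. wdr12 (ENSORLG00000003110) had 99.3, 60.6 and 50.6 CPM in wdr12 GFP-positive libraries, against 24.8, 26.6 and 18.5 CPM in ebf3 GFP-positive libraries, a log2 fold change of 1.59 ± 0.32, adjusted p = 0.002. ebf3 (ENSORLG00000005870) had 493, 236 and 489 CPM in wdr12 GFP-positive libraries, against 2723, 2592 and 2257 CPM in ebf3 GFP-positive libraries (-2.64 ± 0.33, adjusted p = 4.66e-05). Each gene was thus higher in the sort named after it, without overlap of the groups. Markers of cell types could be matched only among genes with a symbol, which the authors had listed as changed in these libraries. In the test below, 37.9% of such genes were called higher and 31.8% lower. Counts of markers are therefore no independent check of the sorts. All 6 genes matched to the 5 progenitor markers (SOX2 in a pair of copies, notch1a, id1, mki67, pcna) were higher in wdr12 GFP-positive cells. There they summed to 5284 to 8764 CPM, against 512 to 836 CPM in ebf3 GFP-positive cells. Of the 6 genes matched to the 5 neuron markers (elavl3, elavl4, snap25, stmn2, gap43), 5 were lower, and their sum was 1481 to 2619 CPM in wdr12 GFP-positive against 3849 to 5134 CPM in ebf3 GFP-positive cells. Neuronal transcripts were thus lower and not absent in the neuroepithelial sort. snap25a had 27.3, 47.6 and 141 CPM in wdr12 GFP-positive libraries, against 371, 335 and 293 CPM in ebf3 GFP-positive libraries. Most of the wdr12 GFP-positive sum came from elavl3, an early pan-neuronal RNA-binding protein. elavl3 had 2272, 1219 and 1587 CPM there, against 3361, 3365 and 2348 CPM in ebf3 GFP-positive libraries. It did not pass the test (-0.84 ± 0.30, adjusted p = 0.059). DESeq2 called it lower (adjusted p = 0.0106), as did edgeR with RLE size factors (0.048) or with abundant genes left out (0.0478). So did edgeR without wdr12 GFP-positive replicate 1 (0.00905) or ebf3 GFP-positive replicate 3 (0.0462).

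The sorts differed in a large share of the genes measured. Of 15640 genes tested with edgeR's quasi-likelihood test, 3671 (23.5%) passed at a Benjamini-Hochberg adjusted p under 0.05, 1983 of them higher (12.7%) and 1688 lower (10.8%) in wdr12 GFP-positive cells. The calls were large: the median log2 fold change was 2.38 among those higher and -1.84 among those lower, and 1261 of the higher against 709 of the lower calls exceeded 2 in size. Beyond a size of 4 lay 244 higher and 32 lower calls. The groups did not overlap at 5909 genes (37.8% of those tested), 3118 (19.9%) with all wdr12 GFP-positive libraries on top and 2791 (17.8%) with all of them below. Counts were 0 in all ebf3 GFP-positive libraries for 14 of the genes called higher, and in all wdr12 GFP-positive libraries for 5 of those called lower. The plot of log2 fold change against level shows both sides.

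**Figure D1:**
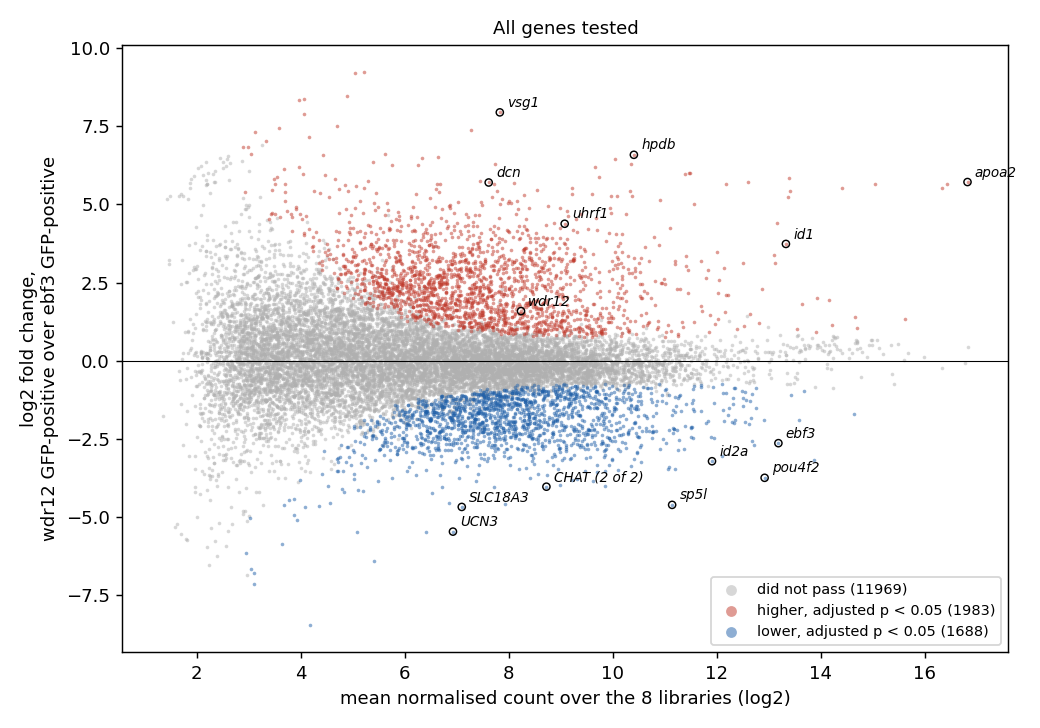
Each point is 1 of 15640 genes, with the mean normalised count over the 8 libraries (log2) on the horizontal axis and the log2 fold change of wdr12 GFP-positive over ebf3 GFP-positive cells on the vertical axis. Red marks the 1983 genes called higher and blue the 1688 called lower. The largest changes are on the higher side, where vsg1 and hpdb lie above 6, while SLC18A3, UCN3 and sp5l lie below -4.

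Increases reached 9.22 over all genes called higher. The naming rule kept genes with a symbol, groups that do not overlap and a mean normalised count of 100 or more. Under it the largest increase was that of vsg1, followed by hpdb and c7a. vsg1 had 38.1, 32.2 and 155 CPM in wdr12 GFP-positive libraries, against 0.276, 0.401 and 0.166 CPM in ebf3 GFP-positive libraries (7.94 ± 0.74, adjusted p = 1.08e-05). Among the 15 largest, taken from genes with a symbol, groups that do not overlap and a mean normalised count of 100 or more, were apoa2 and apoa1b, apolipoproteins of plasma lipoproteins, AHSG and FETUB (2 of 2), fetuins that the liver secretes, c7a, a complement component, hpdb and tat, enzymes of tyrosine breakdown, and dcn, a proteoglycan of connective tissue. apoa2 (ENSORLG00000013999) had 15196, 34636 and 56603 CPM in wdr12 GFP-positive libraries, against 331, 348 and 1349 CPM in ebf3 GFP-positive libraries (5.71 ± 0.64, adjusted p = 2.22e-05). hpdb (ENSORLG00000012993) had 255, 325 and 717 CPM in wdr12 GFP-positive libraries, against 8.13, 2.27 and 2.996 CPM in ebf3 GFP-positive libraries (6.58 ± 0.57, adjusted p = 9.5e-06). Replicate 3 was the highest of the wdr12 GFP-positive libraries for 14 of the 15. The other genes of the 15 were slc5a5 (6.28), a sodium and iodide symporter, osr1 (6.28), a zinc-finger factor of mesoderm, si:dkey-103i16.2 (5.998), ces2 (5.99), a carboxylesterase, hm:zeh0619 (5.76) and b3gnt7 (5.70), a glycosyltransferase. The wdr12 GFP-negative libraries had 8836 and 8338 CPM of apoa2 and 102 and 61.3 CPM of hpdb. All 15 genes were also called lower in ebf3 GFP-positive than in wdr12 GFP-negative cells, as were 494 of all 15640 genes tested. That contrast uses the same ebf3 GFP-positive libraries whose low values helped to choose the 15, so it is no separate evidence. Not all of the 15 calls held when single libraries were left out. hm:zeh0619 had 36.8 and 47.4 CPM in wdr12 GFP-negative libraries, against 47.9, 22.5 and 32.9 CPM in wdr12 GFP-positive libraries. The list of plasma proteins made by the liver took 2.55, 7.99 and 10.9% of the counts in wdr12 GFP-positive libraries, 0.0873, 0.0781 and 0.396% in ebf3 GFP-positive libraries and 2.77 and 1.94% in wdr12 GFP-negative libraries. Its part in the results on other genes was not tested.

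The 15 largest decreases, chosen by the same rule, were led by UCN3, SLC18A3 and sp5l. SLC18A3 (ENSORLG00000009439), the vesicular acetylcholine transporter, had 0.542, 1.15 and 2.32 CPM in wdr12 GFP-positive libraries, against 40.4, 29.4 and 32.3 CPM in ebf3 GFP-positive libraries (-4.67 ± 0.50, adjusted p = 1.8e-05). gfra1a (ENSORLG00000003469), a co-receptor for GDNF-family ligands, had 2.71, 2.88 and 3.22 CPM in wdr12 GFP-positive libraries, against 79.4, 76.1 and 55.6 CPM in ebf3 GFP-positive libraries (-4.58 ± 0.34, adjusted p = 4.08e-06). For both genes every wdr12 GFP-positive library lay far under every ebf3 GFP-positive library. The naming rule required groups without overlap, so this separation follows in part from the choice. UCN3, a peptide of the corticotropin-releasing family, had 0, 0 and 2.57 CPM in wdr12 GFP-positive libraries, against 31.4, 57.4 and 21.6 CPM in ebf3 GFP-positive libraries (-5.46 ± 0.95, adjusted p = 0.000602). rgs8, a regulator of G-protein signalling, was at 0 in wdr12 GFP-positive replicates 1 and 2 and had 4.25 CPM in replicate 3, against 22.3, 24.5 and 21.6 CPM in ebf3 GFP-positive libraries (-4.04 ± 0.96, adjusted p = 0.0058), and DESeq2 did not call it (adjusted p = 0.0879). The 15 largest decreases further held the cholinergic enzyme CHAT (2 of 2) (-4.03), the peptide CCK (1 of 2) (-4.01), both copies of MAF (-4.05 and -4.56), a leucine-zipper factor, the neurexin ligand NXPH3 (-3.98), the copine CPNE5 (1 of 2) (-3.84), the calcium-channel subunit CACNA2D1 (2 of 2) (-3.83), the homeobox factor irx6a (-3.82), the zinc-finger factor sp5l (-4.61), the calcium buffer calb2a (-3.79) and the transporter slco1c1 (-3.76). Of these 15 genes, 4 were also called higher in ebf3 GFP-positive than in wdr12 GFP-negative cells: sp5l, gfra1a, NXPH3 and irx6a. Over all 15640 genes tested, 307 were. The same ebf3 GFP-positive libraries served to choose the 15, so these calls too are no separate evidence. Of the 4 calls only that of sp5l held in every alternative. SLC18A3 did not pass there (0.67 ± 0.47, adjusted p = 0.506), nor did rgs8 (0.16 ± 0.92, adjusted p = 0.966). A suffix such as "1 of 2" marks one of several medaka genes that share a symbol; how alike such copies are, and whether reads were split between them, was not measured here.

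To describe pathways, 31 lists of genes were counted. The authors gave symbols only to genes they listed as changed in these libraries, and list members could be matched only among the 4658 tested genes that carry one; of those, 1766 (37.9%) were called higher and 1483 (31.8%) lower, with a median log2 fold change of 0.28, beside 0.01 over all genes tested. A list's count is therefore no independent evidence of its direction and is read against those shares. Of the 10982 tested genes without a symbol, 217 were called higher and 205 lower. The medians of the lists of cell division, the neuroepithelium, glia and most non-neural cells lay above these values and those of neurons below them, while glycolysis, chromatin and erythrocytes had medians near 0. In bulk samples, fewer cells of a type and less RNA per cell cannot be told apart.

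**Figure D2:**
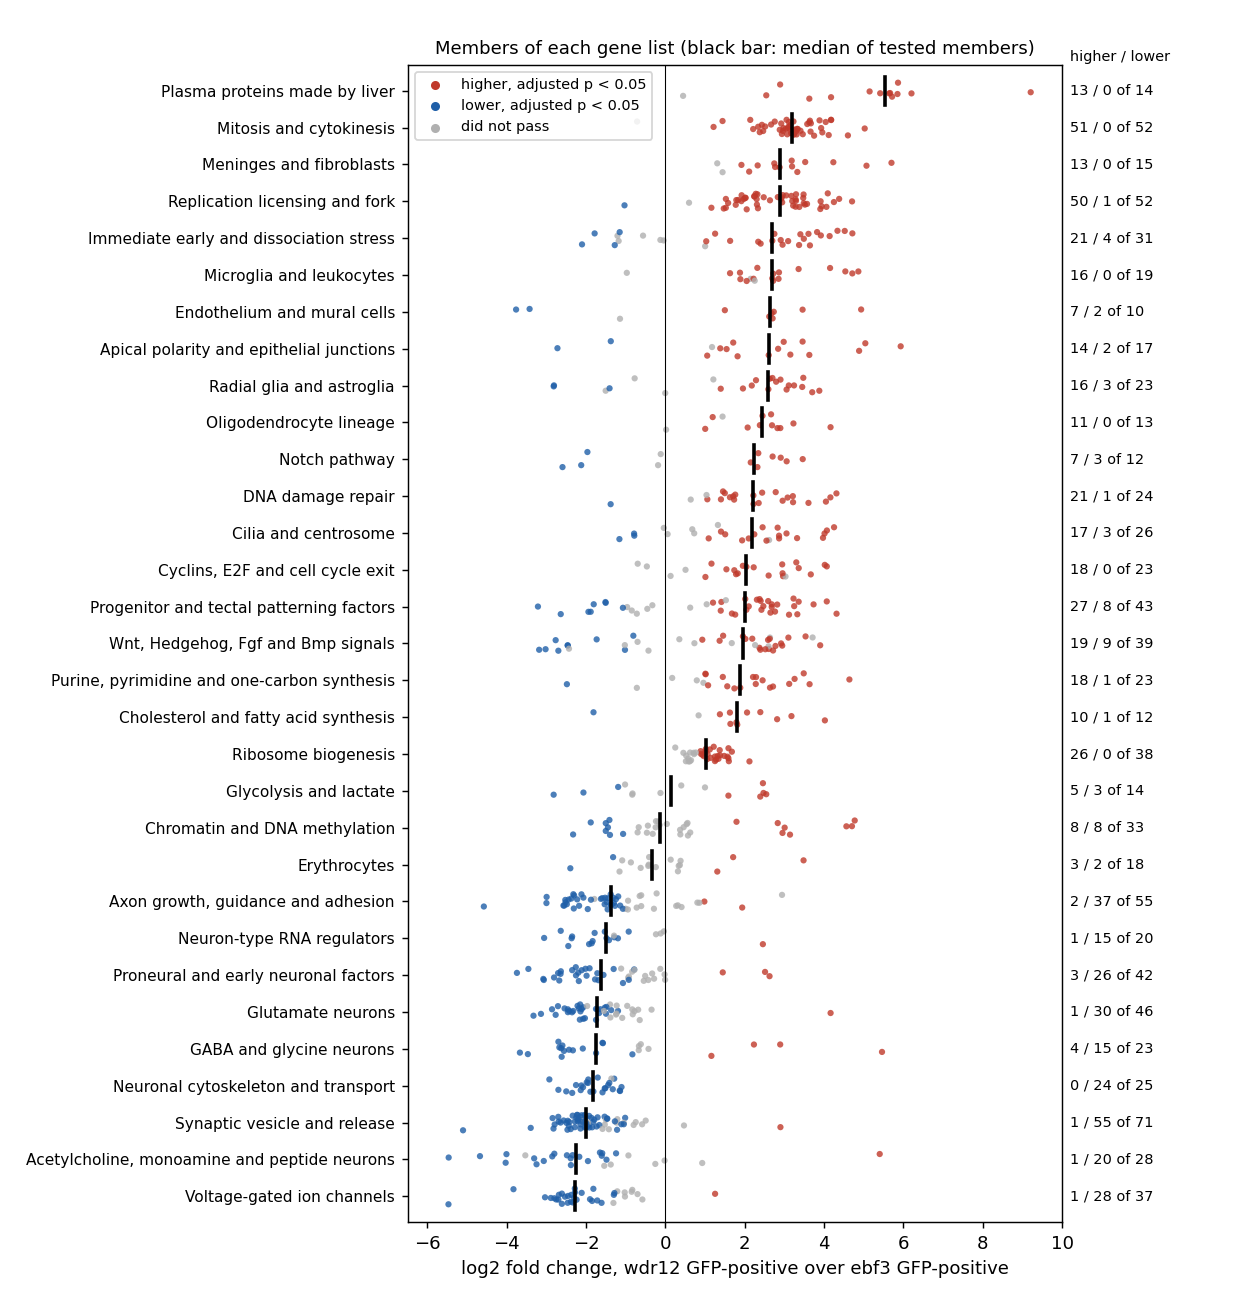
Each row is a gene list and each point a tested member at its log2 fold change, wdr12 GFP-positive over ebf3 GFP-positive cells; red points passed the test as higher, blue points as lower, and grey points did not pass. The black bar is the median, and the counts at the right are members called higher, called lower and tested. Medians run from 5.53 for plasma proteins made by the liver to -2.28 for voltage-gated ion channels.

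Transcription factors and RNA-binding proteins known from neural progenitors were mostly higher in wdr12 GFP-positive cells, and a smaller set of patterning factors went the other way. Of 43 tested members of the list, 27 were higher and 8 lower (median log2 fold change 2.01). As a share of counts the list did not differ beyond the spread: it took 0.709, 0.761 and 0.5599% in wdr12 GFP-positive and 0.738, 0.664 and 0.712% in ebf3 GFP-positive libraries (ratio 0.9603, exact permutation p = 0.8, two-sided). id1 (ENSORLG00000013719), an inhibitor of basic helix-loop-helix factors, had 3884, 3601 and 2525 CPM in wdr12 GFP-positive libraries, against 211, 214 and 327 CPM in ebf3 GFP-positive libraries (3.73 ± 0.34, adjusted p = 1.04e-05). SOX2 (ENSORLG00000001780), a factor of neural stem cells, had 457, 457 and 288 CPM in wdr12 GFP-positive libraries, against 29.5, 36.2 and 51.4 CPM in ebf3 GFP-positive libraries (3.36 ± 0.33, adjusted p = 1.25e-05). The lowest wdr12 GFP-positive library exceeded the highest ebf3 GFP-positive library several times over at both genes. her9 (ENSORLG00000005453), a hairy-type repressor, had 102, 71.4 and 60.5 CPM in wdr12 GFP-positive libraries, against 6.61, 5.75 and 12.7 CPM in ebf3 GFP-positive libraries (3.23 ± 0.38, adjusted p = 3.09e-05). sox9b, a factor of progenitors and glia, was higher too (2.68 ± 0.31, adjusted p = 2.91e-05). Also higher were rfx4 (4.31), pax3a (2.76) and pax3b (2.31), factors of the dorsal neural tube, and dmbx1b (2.04) and DMBX1 (1 of 2) (1.68), homeobox factors of the midbrain, all chosen after their values were seen.

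Members that were lower in wdr12 GFP-positive cells were led by id2a and lhx9. id2a (ENSORLG00000015015), of the same inhibitor family as id1, had 138, 67.6 and 149.6 CPM in wdr12 GFP-positive libraries, against 1138, 1241 and 917 CPM in ebf3 GFP-positive libraries (-3.21 ± 0.35, adjusted p = 1.98e-05). lhx9 (ENSORLG00000008756), a LIM homeobox factor, had 95.4, 63.8 and 116 CPM in wdr12 GFP-positive libraries, against 626, 569.9 and 517 CPM in ebf3 GFP-positive libraries (-2.64 ± 0.30, adjusted p = 2.45e-05). Of the Id genes, id1 was thus higher and id2a lower in wdr12 GFP-positive cells, both without overlap. id4 (-1.94), lhx2b (-1.81) and tfap2a (-1.88), an AP-2 factor, were lower too. These 3 genes, otx2 and SOX11 were chosen after their values were seen. otx2, which specifies forebrain and midbrain, had 522, 396 and 389.9 CPM in wdr12 GFP-positive libraries, against 310.5, 284 and 254 CPM in ebf3 GFP-positive libraries and did not pass (0.63 ± 0.27, adjusted p = 0.121), although the groups did not overlap; DESeq2 called it (adjusted p = 0.0458). SOX11, a factor of differentiating neurons, had 414, 302 and 304 CPM in wdr12 GFP-positive libraries, against 428, 441 and 411 CPM in ebf3 GFP-positive libraries, with groups that overlapped (-0.33 ± 0.26, adjusted p = 0.432).

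**Figure D3:**
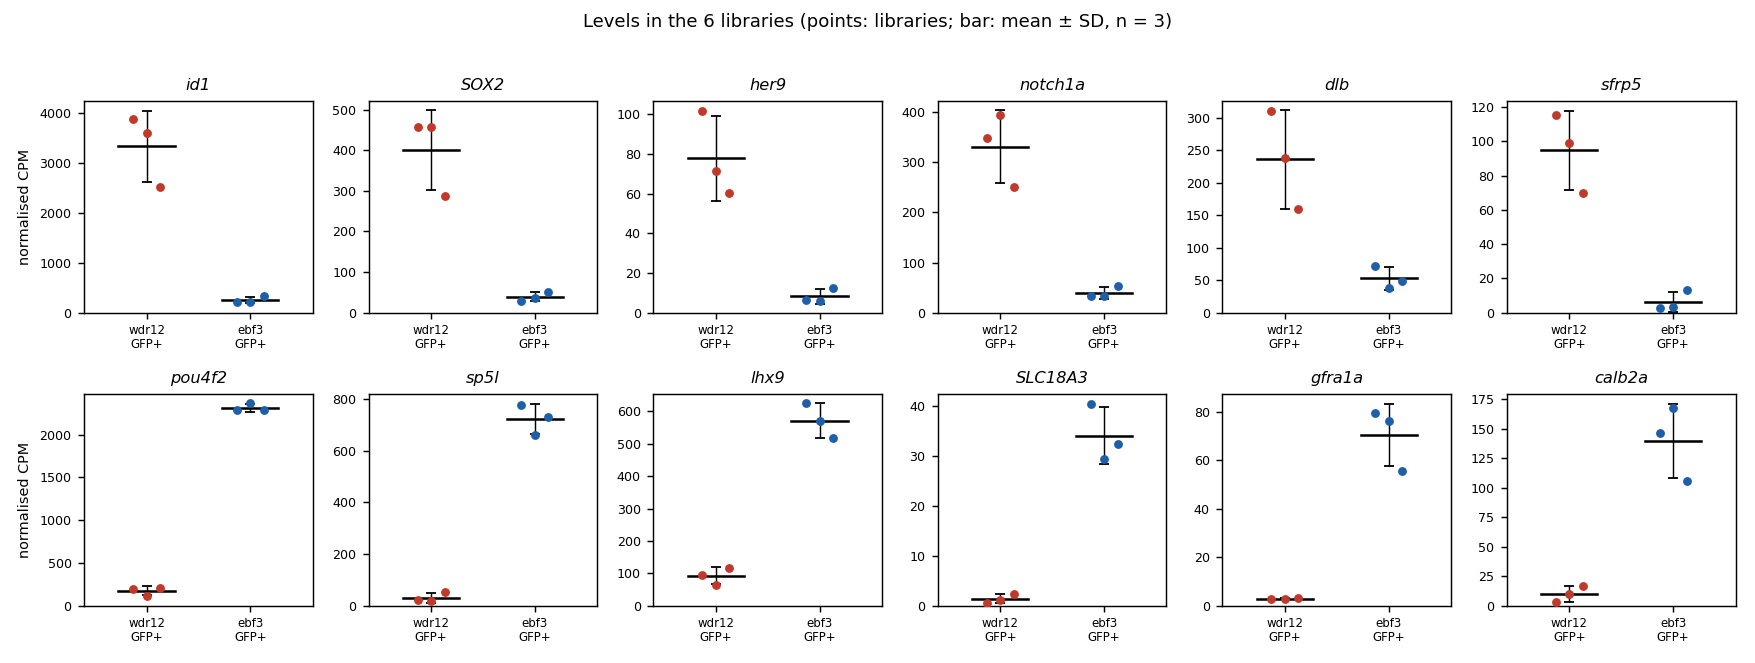
Normalised CPM of 12 genes in the 6 libraries, with wdr12 GFP-positive libraries (red) left of ebf3 GFP-positive libraries (blue); points are libraries and bars the mean ± SD (n = 3 each). The genes of the upper row (id1, SOX2, her9, notch1a, dlb, sfrp5) are higher in every wdr12 GFP-positive library and those of the lower row (pou4f2, sp5l, lhx9, SLC18A3, gfra1a, calb2a) are lower in every one.

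Notch receptors, ligands and a modifier were higher in wdr12 GFP-positive cells. Of 12 tested genes of the pathway, 7 were higher and 3 lower (median 2.24). The receptor notch3 (ENSORLG00000005980) had 230.1, 198 and 188 CPM in wdr12 GFP-positive libraries, against 34.04, 26.6 and 33.96 CPM in ebf3 GFP-positive libraries (2.70 ± 0.27, adjusted p = 1.32e-05). Its relative notch1a (ENSORLG00000005182) had 348, 393 and 251 CPM in wdr12 GFP-positive libraries, against 32.5, 33.7 and 53.1 CPM in ebf3 GFP-positive libraries (3.06 ± 0.31, adjusted p = 1.35e-05). The groups stood well apart at both receptors. The ligand jag1b (2.91 ± 0.37, adjusted p = 5.92e-05), the Delta ligands dld (3.46) and dlb (2.15), both chosen after their values were seen, and lfng, a glycosyltransferase that tunes Notch for its ligands (2.32 ± 0.31, adjusted p = 6.97e-05), were higher as well. dlb, which newborn neurons express in zebrafish, had 311, 238 and 159 CPM in wdr12 GFP-positive libraries, against 72.5, 38.4 and 48.6 CPM in ebf3 GFP-positive libraries, so its transcript was still present in every library of the ebf3 sort. The members that were lower were DLK1, a Delta-like ligand without the domain that activates Notch (-2.59 ± 0.36, adjusted p = 0.00011), DTX4 (2 of 2), a Deltex-type ubiquitin ligase (-1.97 ± 0.41, adjusted p = 0.00242), and dner, a neuronal Notch-like protein (-2.12), the last also chosen after its value was seen.

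Receptors and transducers of the Wnt, Hedgehog and Fgf pathways were among the genes that were higher in wdr12 GFP-positive cells. Of 39 tested members, 19 were higher (48.7%) and 9 lower (23.1%), beside 37.9% and 31.8% of all genes with a symbol (median 1.95). The list's share of counts was 0.409, 0.3305 and 0.301% in wdr12 GFP-positive and 0.462, 0.416 and 0.371% in ebf3 GFP-positive libraries (ratio 0.834, exact permutation p = 0.2, two-sided). The receptor fgfr2 (ENSORLG00000013277) had 868, 627 and 743 CPM in wdr12 GFP-positive libraries, against 85.99, 75.8 and 135 CPM in ebf3 GFP-positive libraries (2.92 ± 0.31, adjusted p = 1.8e-05). sfrp5 (ENSORLG00000007621), a secreted Wnt inhibitor, had 116, 98.9 and 69.99 CPM in wdr12 GFP-positive libraries, against 2.76, 3.34 and 13.2 CPM in ebf3 GFP-positive libraries (3.90 ± 0.51, adjusted p = 6.47e-05). Higher too were the Hedgehog co-receptor boc (2.63 ± 0.32, adjusted p = 3.69e-05), the Wnt receptor fzd10 (2.02 ± 0.28, adjusted p = 0.000108) and, chosen after their values were seen, the Hedgehog transducer smo (3.10), the ligand WNT7A (2.37) and the ligand BMP4 (2.78). fgf12a (-3.02 ± 0.44, adjusted p = 0.000155), fgf13b (-2.46) and fgf14 (-2.70) belong to the intracellular Fgf homologues that bind sodium channels and activate no Fgf receptor, and were lower. LGR6, a receptor for R-spondins, was lower too (-2.77 ± 0.34, adjusted p = 4.75e-05). The Wnt effector lef1 was also lower, at 111, 76.5 and 132 CPM in wdr12 GFP-positive libraries, against 369, 379 and 314 CPM in ebf3 GFP-positive libraries (-1.73 ± 0.28, adjusted p = 0.000351); fgf13b, fgf14 and lef1 were picked with their values in view.

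Genes of apical polarity and epithelial junctions were mostly higher in wdr12 GFP-positive cells, with 14 of 17 higher and 2 lower (median 2.604). numa1 (ENSORLG00000011120) and gpsm2, which anchor and orient the mitotic spindle, were higher (numa1 2.98 ± 0.33, adjusted p = 1.99e-05, and gpsm2 2.84 ± 0.46, adjusted p = 0.000359). The polarity regulator llgl1 was higher (1.82 ± 0.30, adjusted p = 0.00042), and the claudin cldn5a (ENSORLG00000002676) had 218, 142 and 86.8 CPM in wdr12 GFP-positive libraries, against 14.3, 8.29 and 18.1 CPM in ebf3 GFP-positive libraries (3.46 ± 0.41, adjusted p = 3.27e-05). The 2 members that were lower were vangl1, of planar cell polarity (-2.72 ± 0.41, adjusted p = 0.000181), and the junctional adhesion molecule jam3a (-1.38 ± 0.31, adjusted p = 0.00439). A pair of epithelial genes separated the wdr12 GFP-positive libraries from each other. epcam (1 of 2), an epithelial adhesion molecule, had 1.41, 132 and 117 CPM in wdr12 GFP-positive libraries, against 2.205, 0.401 and 5.16 CPM in ebf3 GFP-positive libraries (5.04 ± 1.099, adjusted p = 0.00316). cldn7b had 0.6502, 38.2 and 66.8 CPM in wdr12 GFP-positive libraries, against 0.138, 0.401 and 3.16 CPM in ebf3 GFP-positive libraries (4.88 ± 1.17, adjusted p = 0.0061). In both cases replicate 1 of the wdr12 GFP-positive libraries lay among the ebf3 GFP-positive libraries, and the other two stood high; both genes were picked with their values in view.

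The machinery of division was higher in wdr12 GFP-positive cells almost throughout. Members called higher numbered 50 of 52 for replication, 51 of 52 for mitosis, 18 of 23 for cyclins and cell cycle control, 21 of 24 for DNA repair and 17 of 26 for cilia and centrosome, with medians of 2.88, 3.20, 2.04, 2.22 and 2.17. Few members ran against them: RPA1 (1 of 2), a copy of the large subunit of replication protein A (-1.03 ± 0.29, adjusted p = 0.015), TP53BP1, a factor of DNA break repair (-1.38 ± 0.29, adjusted p = 0.00238), and the ciliary genes KIF3A (1 of 2) (-1.16 ± 0.27, adjusted p = 0.00439), arl6 (-0.78 ± 0.27, adjusted p = 0.0464) and, chosen after its value was seen, IFT122 (-0.79), all lower in wdr12 GFP-positive cells. The call for RPA1 (1 of 2) was lost without ebf3 GFP-positive replicate 1 (adjusted p = 0.0753) or 2 (0.0592), and that for arl6 without any single library other than wdr12 GFP-positive replicate 1, with an adjusted p of up to 0.142 without ebf3 GFP-positive replicate 1. The arl6 call was also lost in edgeR's fit of only the 6 libraries compared (0.0529), with no filter on low counts (0.0539) and with a replicate block (0.0756). Among cyclins, ccnd2a (ENSORLG00000015752), of the G1 phase, had 476, 227 and 238 CPM in wdr12 GFP-positive libraries, against 27.6, 48.01 and 45.9 CPM in ebf3 GFP-positive libraries (2.95 ± 0.36, adjusted p = 3.69e-05). ccnb1, of mitosis, had 779, 413 and 253 CPM in wdr12 GFP-positive libraries, against 56.5, 51.8 and 38.5 CPM in ebf3 GFP-positive libraries (3.30 ± 0.39, adjusted p = 3.09e-05). The centrosomal augmin subunit haus4 was higher as well (4.25 ± 0.45, adjusted p = 1.8e-05). Division genes were lowest in wdr12 GFP-positive replicate 3 as a share of counts: mitosis genes took 1.04, 0.7604 and 0.472%, against 0.106, 0.109 and 0.112% in ebf3 GFP-positive libraries and 0.0805 and 0.0673% in wdr12 GFP-negative libraries. Mitosis transcripts were thus low and not absent in the ebf3 sort, where they took a larger share than in the wdr12 GFP-negative libraries. For replication genes these shares overlapped, at 0.1502, 0.1496 and 0.198% in ebf3 GFP-positive and 0.152 and 0.139% in wdr12 GFP-negative libraries.

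Genes of ribosome biogenesis were higher by smaller amounts. Of 38 members, 26 were higher (median 1.04), and LYAR, a nucleolar protein (2.12 ± 0.35, adjusted p = 0.000425), and fbl, the rRNA methylase fibrillarin (1.60 ± 0.30, adjusted p = 0.00107), were among those with the smallest p. This count depended on single libraries: it was 17 without wdr12 GFP-positive replicate 1, 17 without ebf3 GFP-positive replicate 1 and 15 without ebf3 GFP-positive replicate 2.

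Chromatin genes split evenly, with 8 of 33 higher and 8 lower (24.2% each, median -0.15). Both shares lay below those of all genes with a symbol, 37.9% higher and 31.8% lower. NASP (1 of 2) (ENSORLG00000010548), a histone chaperone, had 258, 181 and 132 CPM in wdr12 GFP-positive libraries, against 6.48, 5.48 and 8.99 CPM in ebf3 GFP-positive libraries (4.77 ± 0.36, adjusted p = 4.08e-06). hells (4.56 ± 0.46, adjusted p = 1.37e-05) and cdca7a (4.70 ± 0.47, adjusted p = 1.35e-05), partners in chromatin remodelling for DNA methylation in mammals, were higher too. Those lower held the remodellers CHD5 (-2.33), chosen after its value was seen, chd3 (-1.50 ± 0.28, adjusted p = 0.000907) and SMARCA4 (1 of 2) (-1.88 ± 0.36, adjusted p = 0.00119), of which CHD5 is known from neurons in mammals. chd3 had 75.4, 81.1 and 119.7 CPM in wdr12 GFP-positive libraries, against 275, 289 and 219 CPM in ebf3 GFP-positive libraries, without overlap.

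Genes of nucleotide and sterol synthesis were mostly higher in wdr12 GFP-positive cells. In purine, pyrimidine and one-carbon synthesis 18 of 23 members were higher and 1 lower (median 1.89). shmt1 (ENSORLG00000013776), which passes one-carbon units to folate, had 257, 161 and 142 CPM in wdr12 GFP-positive libraries, against 5.37, 4.95 and 12.3 CPM in ebf3 GFP-positive libraries (4.64 ± 0.41, adjusted p = 1.04e-05). The purine enzymes atic (3.26 ± 0.34, adjusted p = 1.8e-05) and paics (2.45 ± 0.29, adjusted p = 3.69e-05) and the folate enzyme mthfd1b (3.63 ± 0.45, adjusted p = 4.73e-05) were higher, and impdh1a, a copy of the enzyme that commits purines to guanine nucleotide synthesis, was lower (-2.48 ± 0.69, adjusted p = 0.0147). In cholesterol and fatty acid synthesis 10 of 12 were higher and 1 lower (median 1.802), among them nsdhl (3.18 ± 0.49, adjusted p = 0.000232) and msmo1 (2.39 ± 0.38, adjusted p = 0.000274) of the late sterol pathway. elovl5, which lengthens fatty acids, had 52.7, 44.2 and 84.9 CPM in wdr12 GFP-positive libraries, against 4.55, 2.94 and 3.66 CPM in ebf3 GFP-positive libraries (4.02 ± 0.39, adjusted p = 1.19e-05).

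Genes of glycolysis went in both directions, at shares no larger than those of all genes with a symbol (37.9% higher, 31.8% lower). Of 14 members, 5 were higher (35.7%) and 3 lower (21.4%), with a median of 0.14. The counts thus set the list apart from those genes in neither direction. The ratio of the list's shares of counts was 0.946 (exact permutation p = 0.8, two-sided). The hexokinase hk2 had 24.6, 32.8 and 24.7 CPM in wdr12 GFP-positive libraries, against 0.965, 3.61 and 10.5 CPM in ebf3 GFP-positive libraries (2.46 ± 0.60, adjusted p = 0.0067). eno2 (ENSORLG00000006369), the enolase of neurons, had 10.1, 18.3 and 43.1 CPM in wdr12 GFP-positive libraries, against 147, 210.0 and 146 CPM in ebf3 GFP-positive libraries (-2.82 ± 0.44, adjusted p = 0.00024). Its copy ENO2 (2 of 2) was lower (-2.07 ± 0.39, adjusted p = 0.00118). The inhibitory kinase PDK2, which limits the entry of pyruvate into mitochondria, was higher (1.59 ± 0.33, adjusted p = 0.00212).

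Genes of radial glia and astroglia were higher in wdr12 GFP-positive cells at 16 of 23 members and lower at 3 (median 2.596). cx43 (ENSORLG00000015485), a gap junction protein of glia, had 118, 68.9 and 195 CPM in wdr12 GFP-positive libraries, against 5.93, 9.09 and 20.1 CPM in ebf3 GFP-positive libraries (3.45 ± 0.46, adjusted p = 7.97e-05). aldh1l1, a folate enzyme used as an astroglial marker, had 31.4, 26.4 and 49.3 CPM in wdr12 GFP-positive libraries, against 4.96, 3.08 and 4.33 CPM in ebf3 GFP-positive libraries (3.11 ± 0.39, adjusted p = 4.7e-05). The secreted proteins SPARC (3.70 ± 0.47, adjusted p = 5.24e-05) and ptn (3.48 ± 0.46, adjusted p = 6.96e-05) followed. gfap, the intermediate filament that defines mature radial glia in fish, had 2.38, 6.69 and 20.2 CPM in wdr12 GFP-positive libraries, against 2.205, 2.67 and 7.82 CPM in ebf3 GFP-positive libraries and did not pass (1.21 ± 0.70, adjusted p = 0.256); the groups overlapped. The 4 radial glia markers (gfap, fabp7a, cx43 and slc1a2b), of which the other three were called higher, summed to 478 to 1957 CPM in wdr12 GFP-positive and 207 to 270.3 CPM in ebf3 GFP-positive libraries. The lower members were cspg5b, a neuroglial proteoglycan (-2.82 ± 0.29, adjusted p = 1.72e-05), ntrk2b, a neurotrophin receptor also present in neurons (-2.81 ± 0.31, adjusted p = 1.99e-05), and ndrg2 (-1.41), the last chosen after its value was seen. The list took 1.05, 0.789 and 1.44% of counts in wdr12 GFP-positive libraries, 0.385, 0.363 and 0.463% in ebf3 GFP-positive libraries and 1.42 and 1.08% in wdr12 GFP-negative libraries, so the lowest shares were those of the ebf3 sort.

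Transcription factors of young neurons were mostly lower in wdr12 GFP-positive cells. Of 42 proneural and early neuronal factors, 3 were higher and 26 lower (median -1.62). pou4f2 (ENSORLG00000007412), a POU-domain factor of retinal ganglion and tectal neurons, had 193, 114 and 211 CPM in wdr12 GFP-positive libraries, against 2284, 2364 and 2286 CPM in ebf3 GFP-positive libraries (-3.74 ± 0.32, adjusted p = 9.5e-06). NEUROD2 (1 of 2) (ENSORLG00000003441), a basic helix-loop-helix factor of neuronal differentiation, had 55.1, 48.7 and 94.95 CPM in wdr12 GFP-positive libraries, against 689.7, 583 and 904 CPM in ebf3 GFP-positive libraries (-3.45 ± 0.35, adjusted p = 1.37e-05). neurod2 was lower (-2.64 ± 0.28, adjusted p = 1.8e-05). In these genes the groups were far apart. cux2b, a homeobox factor of neuronal subtypes, had 17.99, 24.1 and 31.7 CPM in wdr12 GFP-positive libraries, against 208, 181 and 233 CPM in ebf3 GFP-positive libraries (-3.08 ± 0.31, adjusted p = 1.32e-05). The Ebf relatives EBF1 (2 of 2) (-2.81) and ebf1a (-1.72), chosen after their values were seen, were lower as well. The exceptions were onecut1, a factor of early neurons (2.63 ± 0.54, adjusted p = 0.00216), prdm8 (2.51 ± 0.43, adjusted p = 0.000569) and neurod4 (1 of 2) (1.45 ± 0.32, adjusted p = 0.00316), which were higher; the last, chosen after its values were seen, had 152, 117 and 81.4 CPM in wdr12 GFP-positive libraries, against 48.4, 39.3 and 40.9 CPM in ebf3 GFP-positive libraries.

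RNA-binding regulators of neurons were mostly lower too, with 15 of 20 lower and 1 higher in wdr12 GFP-positive cells (median -1.51). celf4 (ENSORLG00000008913) had 94.2, 80.9 and 166 CPM in wdr12 GFP-positive libraries, against 657, 669 and 531 CPM in ebf3 GFP-positive libraries (-2.45 ± 0.32, adjusted p = 6.08e-05). Its relative CELF6 was lower (-2.64 ± 0.35, adjusted p = 7.1e-05). khdrbs3, a splicing regulator, had 9.86, 10.96 and 20.2 CPM in wdr12 GFP-positive libraries, against 101, 124 and 116 CPM in ebf3 GFP-positive libraries (-3.06 ± 0.33, adjusted p = 1.82e-05). rbfox2 (2 of 2), of the Rbfox splicing family, was lower (-1.86 ± 0.28, adjusted p = 0.000186). The single member that was higher was PTBP1A, a splicing repressor known to hold back neuronal exons in progenitors of mammals, at 28.1, 35.6 and 25.5 CPM in wdr12 GFP-positive libraries, against 5.37, 1.47 and 9.49 CPM in ebf3 GFP-positive libraries (2.46 ± 0.59, adjusted p = 0.00622).

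Most genes of transmitter systems were lower in wdr12 GFP-positive cells. Cholinergic, monoamine and peptide genes were lower at 20 of 28 members and higher at 1 (median -2.25). CHAT (2 of 2) (ENSORLG00000009452), which makes acetylcholine, had 2.49, 6.46 and 10.04 CPM in wdr12 GFP-positive libraries, against 114, 111 and 83.7 CPM in ebf3 GFP-positive libraries (-4.03 ± 0.42, adjusted p = 1.8e-05). The receptor subunit chrnb3a had 4.88, 7.61 and 8.75 CPM in wdr12 GFP-positive libraries, against 67.1, 79.4 and 63.8 CPM in ebf3 GFP-positive libraries (-3.31 ± 0.32, adjusted p = 1.19e-05). Glutamate genes were lower at 30 of 46 and higher at 1 (median -1.73). The vesicular glutamate transporters slc17a6a (-2.86 ± 0.34, adjusted p = 3.45e-05) and slc17a6b were lower, the second with 38.9, 35.1 and 67.03 CPM in wdr12 GFP-positive libraries, against 277, 389 and 293 CPM in ebf3 GFP-positive libraries (-2.77 ± 0.33, adjusted p = 3.66e-05). So were the metabotropic receptors grm8a (-3.33 ± 0.37, adjusted p = 2.06e-05) and grm1a (-2.46 ± 0.32, adjusted p = 6.21e-05).

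In the GABA and glycine list 15 of 23 members were lower and 4 higher (median -1.75). The GABA transporter slc6a1a had 114, 111 and 327 CPM in wdr12 GFP-positive libraries, against 1117, 1196 and 931 CPM in ebf3 GFP-positive libraries (-2.56 ± 0.40, adjusted p = 0.000245). Its relative slc6a1b, picked with its values in view, was called higher. The slc6a1b call was lost without wdr12 GFP-positive replicate 1 (log2 fold change 0.996, adjusted p = 0.0746) or 3 (0.809, 0.131). It was also lost without ebf3 GFP-positive replicate 1 (1.04, 0.137) or 2 (1.14, 0.092). Higher too were the glycine transporter slc6a9 (2.23 ± 0.28, adjusted p = 4.66e-05) and SLC6A13 (2 of 2) (5.46 ± 0.96, adjusted p = 0.000633), a GABA transporter found in meninges and liver of mammals. The genes of GABA synthesis and loading, chosen after their values were seen, mostly did not pass. gad2, a glutamate decarboxylase, had 6.83, 6.23 and 13.9 CPM in wdr12 GFP-positive libraries, against 10.3, 15.1 and 10.7 CPM in ebf3 GFP-positive libraries (-0.43 ± 0.38, adjusted p = 0.503). gad1b, of the same family, had 21.5, 25.5 and 79.9 CPM in wdr12 GFP-positive libraries, against 47.96, 70.6 and 82.7 CPM in ebf3 GFP-positive libraries (-0.67 ± 0.42, adjusted p = 0.302). slc32a1, the vesicular GABA transporter, had 24.7, 22.3 and 33.8 CPM in wdr12 GFP-positive libraries, against 38.03, 42.9 and 47.8 CPM in ebf3 GFP-positive libraries (-0.67 ± 0.27, adjusted p = 0.0956). None of the 3 passed the test with all libraries; without wdr12 GFP-positive replicate 3, whose value is the highest of its group for each, gad1b (adjusted p = 0.00215) and slc32a1 (0.0336) were called lower and gad2 was not (0.0986). A further decarboxylase copy, gad1a, was called lower at the margin (-0.83 ± 0.29, adjusted p = 0.0495). The call was lost without any single library other than wdr12 GFP-positive replicate 3, with an adjusted p of up to 0.146 without ebf3 GFP-positive replicate 1. It was also lost in edgeR's fit of only the 6 libraries compared (0.0636) and with no filter on low counts (0.0513).

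Genes of excitability and the synapse were lower in wdr12 GFP-positive cells. Voltage-gated channel genes were lower at 28 of 37 and higher at 1 (median -2.28). The calcium channel cacna1c (ENSORLG00000014296) had 5.09, 14.9 and 16.98 CPM in wdr12 GFP-positive libraries, against 90.5, 81.5 and 84.9 CPM in ebf3 GFP-positive libraries (-2.80 ± 0.38, adjusted p = 8.41e-05), and the potassium channels kcnc2 (-2.69 ± 0.33, adjusted p = 4.36e-05) and KCNA2 (1 of 2) (-2.89 ± 0.40, adjusted p = 9.36e-05) were lower. kcnn1a, a calcium-activated potassium channel, was the member that was higher (1.25 ± 0.31, adjusted p = 0.00726). Synaptic vesicle genes were lower at 55 of 71 and higher at 1 (median -1.99). syngr3a (ENSORLG00000008586), a vesicle membrane protein, had 95.4, 48.2 and 92.5 CPM in wdr12 GFP-positive libraries, against 657, 588 and 451 CPM in ebf3 GFP-positive libraries (-2.84 ± 0.32, adjusted p = 2.45e-05). rims3, of the active zone, had 3.47, 4.38 and 5.66 CPM in wdr12 GFP-positive libraries, against 31.7, 28.9 and 27.3 CPM in ebf3 GFP-positive libraries (-2.70 ± 0.35, adjusted p = 6.76e-05). The endocytic protein amph (-2.64 ± 0.34, adjusted p = 6.07e-05) and the vesicle protein SYNPR (1 of 2) (-2.82 ± 0.31, adjusted p = 1.99e-05) were lower too. The list took 0.0857, 0.123 and 0.224% of counts in wdr12 GFP-positive libraries, against 0.723, 0.761 and 0.722% in ebf3 GFP-positive libraries, and replicate 3 was the highest of the first group.

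Axon growth, guidance and adhesion genes were lower in wdr12 GFP-positive cells at 37 of 55 and higher at 2 (median -1.38). The guidance ligand SLIT1 (2 of 2) had 8.89, 12.2 and 9.65 CPM in wdr12 GFP-positive libraries, against 55.4, 59.2 and 61.6 CPM in ebf3 GFP-positive libraries (-2.52 ± 0.32, adjusted p = 6.03e-05), and the receptor nrp2a (-2.49 ± 0.33, adjusted p = 7.27e-05) and the semaphorin sema6d (-2.30 ± 0.32, adjusted p = 9.17e-05) were lower. NTN4 (2 of 2), a netrin of basement membranes, was higher (1.94 ± 0.42, adjusted p = 0.00327). plxnb1a, a semaphorin receptor, was higher (0.98 ± 0.28, adjusted p = 0.0195). Its call was lost without wdr12 GFP-positive replicate 2 (adjusted p = 0.0655), ebf3 GFP-positive replicate 1 (0.068) or ebf3 GFP-positive replicate 3 (0.0607). The neuronal cytoskeleton and transport list had 24 of 25 members lower and 0 higher in edgeR (median -1.81), and again 0 higher at an unadjusted p under 0.05 and in DESeq2. The kinesin KIF21B (ENSORLG00000016093) had 22.4, 19.8 and 23.4 CPM in wdr12 GFP-positive libraries, against 85.2, 76.5 and 91.2 CPM in ebf3 GFP-positive libraries (-1.94 ± 0.28, adjusted p = 0.000151). The kinesin light chain klc1a (-2.35 ± 0.33, adjusted p = 0.000107) and the microtubule-associated protein map7d2a (-2.70 ± 0.38, adjusted p = 0.000104) were lower too.

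The ebf3 GFP-positive cells also differed from the wdr12 GFP-negative cells, the mixed population of the other line. Of 15640 genes, 801 (5.12%) were called in the same fit, a comparison that shares the ebf3 GFP-positive libraries with the one above. The count rested on single libraries: it was 209 and 169 without wdr12 GFP-negative replicate 1 and 2, 297 and 414 without ebf3 GFP-positive replicate 1 and 2, and 1329 without wdr12 GFP-positive replicate 1. Of the 801, 307 were higher and 494 lower in ebf3 GFP-positive cells. List members were again matched only among genes with a symbol, which the authors had listed as changed, some of them in this contrast. The share called among genes with a symbol is not given for this contrast. Counts of list members are therefore no independent evidence of direction here, and the share over all genes is no fair measure for them. Many genes of other cell types were lower: 12 of 18 red cell genes, 13 of 19 of microglia and leukocytes, 13 of 23 of radial glia and astroglia, 10 of 14 liver-made plasma proteins and 8 of 13 of the oligodendrocyte lineage. Red cell genes took 0.122, 0.106 and 0.162% of counts in ebf3 GFP-positive and 3.603 and 13.8% in wdr12 GFP-negative libraries, and the more abundant copy of GB had 223, 191 and 562 CPM in ebf3 GFP-positive and 13904 and 74199.9 CPM in wdr12 GFP-negative libraries (-7.08 ± 0.85, adjusted p = 0.000495). Without wdr12 GFP-negative replicate 2 these counts were 8, 3, 5, 7 and 3, in the same order, and without its replicate 1 they were 11, 7, 7, 6 and 1. Without ebf3 GFP-positive replicate 1 the counts for microglia, radial glia and the oligodendrocyte lineage were 7, 7 and 4, and without replicate 2 they were 9, 8 and 4. The part of these transcripts in the values that follow was not tested. Proneural and early neuronal factors were higher in ebf3 GFP-positive cells at 21 of 42 members, and at 7 and 9 without wdr12 GFP-negative replicate 1 and 2. Transcription factors were among the genes higher in ebf3 GFP-positive cells. pou4f2 had 2284, 2364 and 2286 CPM in ebf3 GFP-positive and 441 and 522 CPM in wdr12 GFP-negative libraries (log2 fold change 2.26 ± 0.35, adjusted p = 0.00237). NEUROD2 (1 of 2) had 689.7, 583 and 904 CPM in ebf3 GFP-positive and 66.6 and 104 CPM in wdr12 GFP-negative libraries (3.09 ± 0.41, adjusted p = 0.000852). sp5l had 779.6, 663 and 729.9 CPM in ebf3 GFP-positive and 96.6 and 94.6 CPM in wdr12 GFP-negative libraries (2.92 ± 0.45, adjusted p = 0.00237). The groups did not overlap at these 3 genes. lhx2b (2.52 ± 0.34, adjusted p = 0.00107) and barhl1b (2.53 ± 0.36, adjusted p = 0.00156), homeobox factors chosen after their values were seen, were higher in the ebf3 sort as well. These 5 calls held under all 13 alternatives. For lhx9 the difference was 2.11 ± 0.34, adjusted p = 0.00299, and leaving out wdr12 GFP-negative replicate 1 ended the call (adjusted p = 0.0648); for id2a it was 2.07 ± 0.39, adjusted p = 0.00648, lost without wdr12 GFP-negative replicate 1 (0.124) or 2 (0.055).

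Of the genes of GABA synthesis and loading, gad2, gad1b and slc32a1 were lower in ebf3 GFP-positive than in wdr12 GFP-negative cells, and gad1a did not pass. gad2 had 10.3, 15.1 and 10.7 CPM in ebf3 GFP-positive and 51.6 and 53.8 CPM in wdr12 GFP-negative libraries (-2.13 ± 0.41, adjusted p = 0.00758). gad1b had 47.96, 70.6 and 82.7 CPM in ebf3 GFP-positive and 304 and 352 CPM in wdr12 GFP-negative libraries (-2.29 ± 0.46, adjusted p = 0.0095). For slc32a1 the levels were 38.03, 42.9 and 47.8 CPM in ebf3 GFP-positive and 129.9 and 123 CPM in wdr12 GFP-negative libraries (-1.56 ± 0.30, adjusted p = 0.0071). gad1a had 87.9, 80.2 and 80.6 CPM in ebf3 GFP-positive and 121 and 140.3 CPM in wdr12 GFP-negative libraries (-0.66 ± 0.32, adjusted p = 0.279). Each of the 3 calls was lost when either wdr12 GFP-negative library was left out, with adjusted p of 0.0757 and 0.091 for gad2, 0.0509 and 0.0797 for gad1b, and 0.0851 and 0.0722 for slc32a1, and those for gad1b (0.0653) and slc32a1 (0.0538) also without ebf3 GFP-positive replicate 1. In the same contrast slc17a6b (0.37 ± 0.35, adjusted p = 0.669), CHAT (2 of 2) (0.64 ± 0.42, adjusted p = 0.473) and the synaptic gene snap25a (-1.06 ± 0.48, adjusted p = 0.243) did not pass. Of 52 mitosis genes, 2 were higher and 2 lower (median 0.71), with no call in either direction when either wdr12 GFP-negative library was left out; DESeq2 called 6 higher and the replicate block 8. mki67 (-0.28 ± 0.45, adjusted p = 0.838) did not pass, nor did ccnb1 (1.47 ± 0.43, adjusted p = 0.0612), which was called higher by DESeq2 (adjusted p = 0.00919) and with the replicate block (0.00825). foxm1, a factor that drives mitotic genes, was lower (-2.39 ± 0.65, adjusted p = 0.0439), and 6 of the 8 settings that leave out a library ended the call. For this contrast, these 3 genes were chosen after their values were seen.

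**Figure D4:**
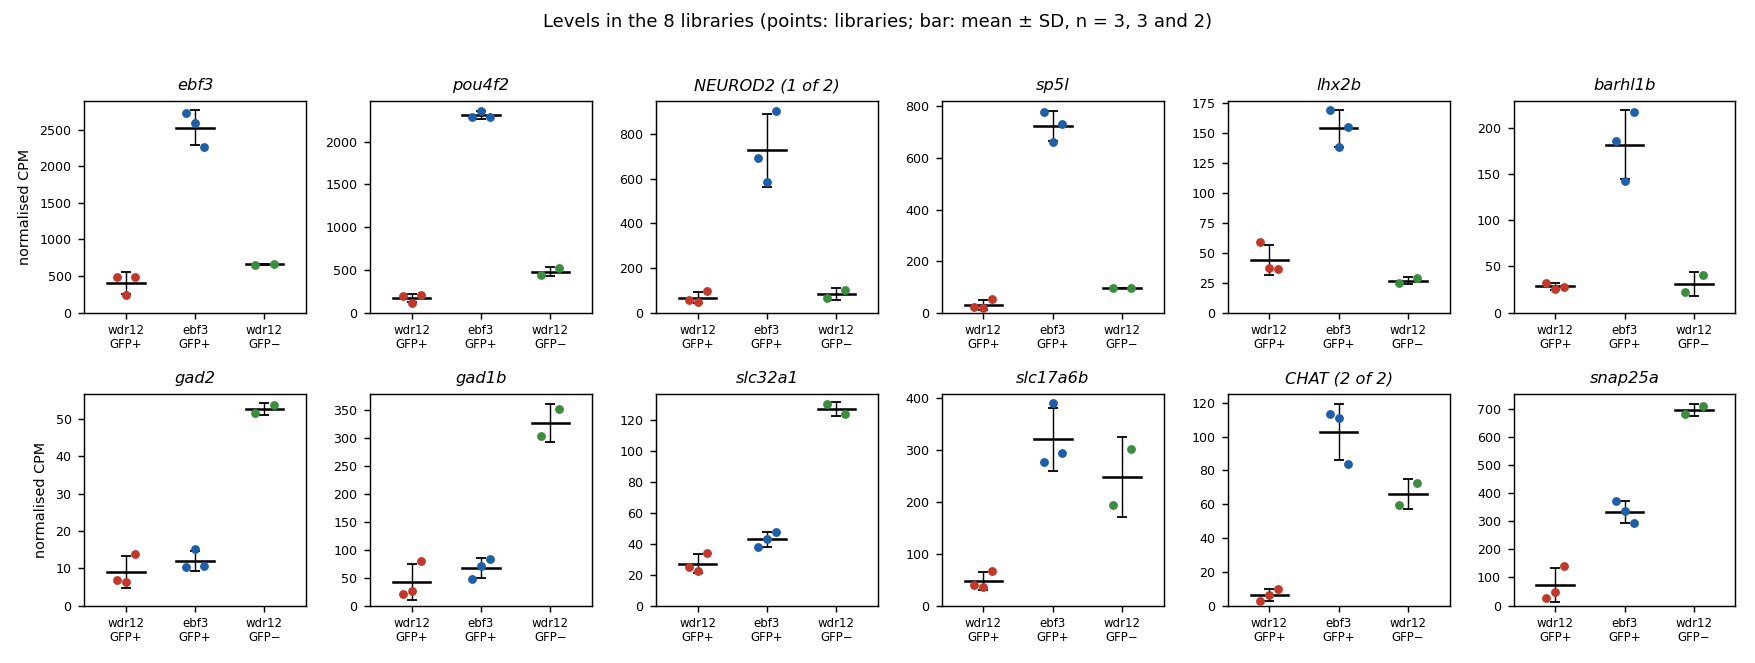
Normalised CPM of 12 genes in wdr12 GFP-positive (red, n = 3), ebf3 GFP-positive (blue, n = 3) and wdr12 GFP-negative (green, n = 2) libraries; points are libraries and bars the mean ± SD. ebf3, pou4f2, NEUROD2 (1 of 2), sp5l, lhx2b and barhl1b stand highest in ebf3 GFP-positive libraries, whereas gad2, gad1b and slc32a1 stand highest in wdr12 GFP-negative libraries.

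Transcripts typical of liver, connective tissue and immune cells were far more abundant in the wdr12 GFP-positive libraries. Genes of the oligodendrocyte lineage, which is neural, were mostly higher there. Of 14 liver-made plasma proteins 13 were higher (median 5.53), of 15 genes of meninges and fibroblasts 13 (median 2.88), of 19 of microglia and leukocytes 16 (median 2.69), and of 13 of the oligodendrocyte lineage 11 (median 2.45). None of these lists had a member called lower by edgeR, at an unadjusted p under 0.05 or by DESeq2. The count for the oligodendrocyte lineage was 6 without ebf3 GFP-positive replicate 2. Of the markers set for each type, apoa1b, apoa2 and tfa summed to 24440 to 106929 CPM in wdr12 GFP-positive and 542 to 2673 CPM in ebf3 GFP-positive libraries, and col1a1b, col1a2 and dcn to 77.6 to 325 CPM in wdr12 GFP-positive and 8.83 to 18.6 CPM in ebf3 GFP-positive libraries. ptprc and coro1a summed to 41.8 to 51.5 CPM in wdr12 GFP-positive and 11.8 to 16.3 CPM in ebf3 GFP-positive libraries, and plp1b, mag and olig2 to 252 to 642 CPM and 29.3 to 356 CPM in the same groups. The last of these sums overlapped between the groups. No matched marker was at 0 in a whole group. alb, csf1r, spi1, mbp, kdr, tie1 and fli1 are not among the genes with a symbol. The part of these transcripts in the results on other genes was not tested.

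The shares of counts showed which libraries carried them. Plasma protein genes took 38.2 times the share in wdr12 GFP-positive as in ebf3 GFP-positive libraries, and the ratio was 7.27 for meninges and fibroblasts, 5.95 for microglia and leukocytes and 2.497 for the oligodendrocyte lineage. Each gave an exact permutation p of 0.1, two-sided, which is the smallest that 3 libraries against 3 allow. Meninges genes took 0.0363, 0.0811 and 0.106% of counts in wdr12 GFP-positive and 0.00612, 0.00896 and 0.0157% in ebf3 GFP-positive libraries, and microglia genes 0.0939, 0.182 and 0.156% in wdr12 GFP-positive and 0.01499, 0.0177 and 0.0399% in ebf3 GFP-positive libraries. Replicate 1 was the lowest of the wdr12 GFP-positive libraries in all 4 lists, and replicate 3 the highest of the ebf3 GFP-positive ones. In wdr12 GFP-negative libraries, microglia genes took 0.157 and 0.133% and oligodendrocyte genes 0.549 and 0.241%, so for microglia the low values were those of the ebf3 sort. cd74b (ENSORLG00000004411), which carries antigen-presenting molecules in immune cells, had 182, 191 and 243 CPM in wdr12 GFP-positive libraries, against 20.3, 27.02 and 46.6 CPM in ebf3 GFP-positive libraries (2.72 ± 0.33, adjusted p = 3.76e-05), and 275 and 267 CPM in wdr12 GFP-negative libraries (ebf3 GFP-positive over wdr12 GFP-negative, -3.12 ± 0.35, adjusted p = 0.000348). GPR17, a receptor of oligodendrocyte precursors, had 111, 107 and 58.2 CPM in wdr12 GFP-positive libraries, against 12.3, 5.62 and 11.7 CPM in ebf3 GFP-positive libraries (3.23 ± 0.40, adjusted p = 4.62e-05), whereas the myelin gene plp1b had 217, 286 and 603 CPM in wdr12 GFP-positive libraries, against 37.8, 23.8 and 346 CPM in ebf3 GFP-positive libraries and did not pass (1.44 ± 0.73, adjusted p = 0.189); without ebf3 GFP-positive replicate 3, the highest of its group, plp1b was called higher (adjusted p = 0.000243).

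**Figure D5:**
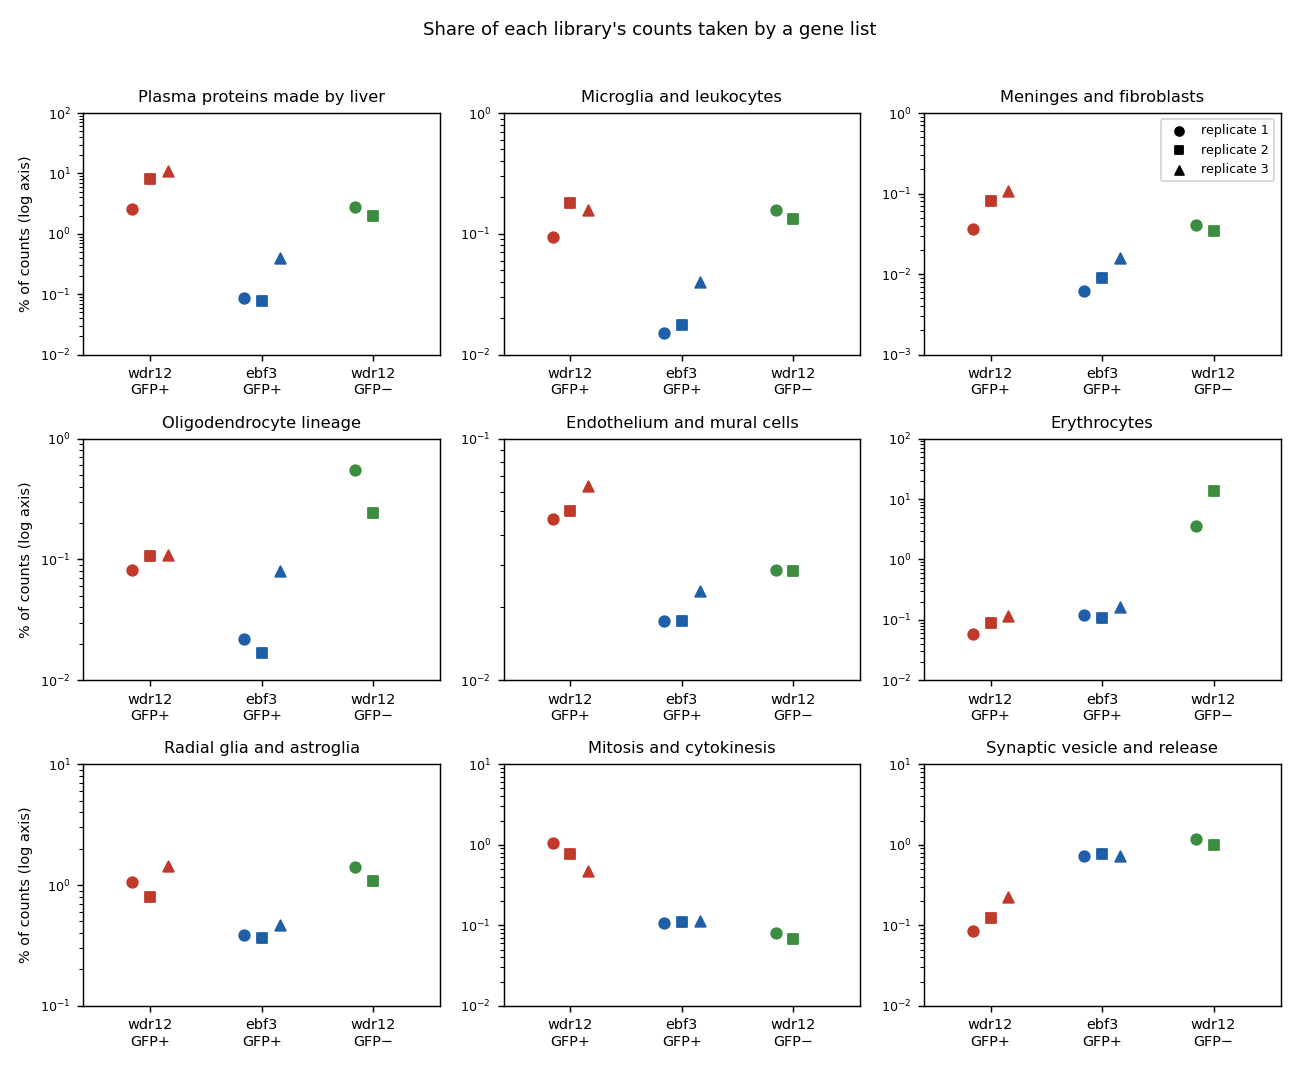
Percent of each library's counts, on log axes, taken by 9 gene lists in wdr12 GFP-positive (red), ebf3 GFP-positive (blue) and wdr12 GFP-negative (green) libraries; the marker's shape gives the replicate number. Plasma protein, microglia and meninges genes are lowest in the ebf3 GFP-positive libraries, and mitosis genes are highest in the wdr12 GFP-positive libraries.

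Endothelial and red cell genes did not follow these lists as a block. Of 10 genes of endothelium and mural cells, 7 were higher and 2 lower (median 2.65). Of the 7, notch3 and cldn5a are also counted in the lists of the Notch pathway and of apical junctions. The mural-cell potassium channel kcnj8 (4.93 ± 0.71, adjusted p = 0.000131) and the smooth-muscle protein tagln (2.68 ± 0.47, adjusted p = 0.000603) were higher. cdh5 (ENSORLG00000001288), which joins endothelial cells, was lower, at 3.79, 4.27 and 14.3 CPM in wdr12 GFP-positive libraries, against 78.3, 84.7 and 75.7 CPM in ebf3 GFP-positive libraries (-3.42 ± 0.45, adjusted p = 6.96e-05), as was slco1c1, a transporter known from brain endothelium in mammals, at 0.6502, 2.999 and 3.47 CPM in wdr12 GFP-positive libraries, against 20.9, 36.9 and 38.8 CPM in ebf3 GFP-positive libraries (-3.76 ± 0.53, adjusted p = 0.000107); no wdr12 GFP-positive library came near the ebf3 GFP-positive libraries in either gene. Of 18 red cell genes 3 were higher (16.7%) and 2 lower (11.1%), with a median of -0.33. Both shares lay below those of all genes with a symbol (37.9% and 31.8%). The copy of the globin gene GB with more counts had 68.2, 262 and 496 CPM in wdr12 GFP-positive libraries, against 223, 191 and 562 CPM in ebf3 GFP-positive libraries (-0.24 ± 0.64, adjusted p = 0.856). Globin genes occur as similar copies, between which reads may have been split, so their levels are uncertain. The red cell markers GB, ALAS2, cahz and GATA-1 summed to 127 to 866 CPM in wdr12 GFP-positive and 319 to 831 CPM in ebf3 GFP-positive libraries, which overlap. rhag, an ammonium channel of the red cell membrane, was higher (3.48 ± 0.58, adjusted p = 0.000447). Its relative rhd was lower (-2.40 ± 0.36, adjusted p = 0.000194).

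Immediate early and stress genes were higher in wdr12 GFP-positive cells at 21 of 31 members and lower at 4 (median 2.70). The list took 0.148, 0.255 and 0.201% of counts in wdr12 GFP-positive and 0.118, 0.111 and 0.145% in ebf3 GFP-positive libraries (ratio 1.62, exact permutation p = 0.1, two-sided). In wdr12 GFP-negative libraries it took 0.201 and 0.253%, so the lowest shares were those of the ebf3 sort. jun (ENSORLG00000014541), an AP-1 factor, had 41.8, 54.8 and 49.1 CPM in wdr12 GFP-positive libraries, against 1.93, 3.48 and 6.33 CPM in ebf3 GFP-positive libraries (3.64 ± 0.43, adjusted p = 3.25e-05). dusp1, a phosphatase of the MAP kinase response, had 87.8, 147 and 132 CPM in wdr12 GFP-positive libraries, against 18.1, 13.6 and 17.1 CPM in ebf3 GFP-positive libraries (2.91 ± 0.31, adjusted p = 1.8e-05). The mRNA-decay factor zfp36l1a (3.92 ± 0.38, adjusted p = 1.19e-05) and the matricellular protein cyr61 (3.82 ± 0.45, adjusted p = 3.37e-05) were higher as well, without overlap of the groups. In wdr12 GFP-negative libraries jun had 12.2 and 16.1 CPM and dusp1 21.8 and 26.3 CPM, below every wdr12 GFP-positive library. ddit3 (ENSORLG00000005361), a factor of the unfolded protein response, was lower, at 41.2, 60.1 and 92.5 CPM in wdr12 GFP-positive libraries, against 342, 280.2 and 209 CPM in ebf3 GFP-positive libraries (-2.10 ± 0.33, adjusted p = 0.000279). So was the phosphatase dusp4 (-1.78 ± 0.27, adjusted p = 0.000203). Both sorts were dissociated and sorted by the same protocol, per the labels; how long each took is not given in the sources used here, and its part in these values was not tested.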

How the data were processed

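RNA of sorted tectal cells was sequenced in 8 libraries. The deposited tables hold counts of reads per Ensembl gene, not normalised. Per the submitters' processing notes, CASAVA 1.8.2, FastQC 0.10.1, TopHat2 and DESeq were used; no source used here gives the counter, its strand setting, the genome build or the annotation. The lowest total of a gene over the 6 libraries was 11, so genes with fewer reads may have been left out before deposit. The authors' lists of changed genes gave the symbols, and their fold changes and p-values were not used. These lists gave more than 1 symbol to 229 genes, and for 210 the symbols differed beyond letter case. The first symbol found was kept, with the lists of this comparison read first. Other choices of symbol were not tested.

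Counts of the 16957 genes present for all 8 libraries were fitted with edgeR 4.0.16 in R 4.3.3 (TMM normalisation, default filterByExpr, quasi-likelihood F test, 3 groups, no covariate), and p-values were adjusted by Benjamini-Hochberg over 15640 genes. A value such as "1.59 ± 0.32" is a log2 fold change with its standard error, derived from the F statistic. Read counts are not independent molecules. In counts simulated for this comparison over 14862 genes, the test called, in the true direction, 68% of 100 genes changed 4-fold and 1% of 100 changed 2-fold, and 5.48% of calls fell on unchanged genes. Far fewer genes were changed there than were called in the data, so these rates need not hold for the data.

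The text names wdr12, ebf3, the 15 genes with the largest called increases and the 15 with the largest decreases (with a symbol, no overlap of the groups and a mean normalised count of 100 or more), and in each list up to 4 called members in the main direction and 2 in the other by smallest adjusted p. Some genes that this rule names are not reported here. Other genes are marked as chosen after their values were seen or are markers of a cell type. The comparison, its members and the lists were chosen with earlier results of these data known. Shares of counts were compared by exact permutation tests in SciPy 1.17.1. DESeq2 1.42.0, other size factors, no filter, abundant genes left out, a fit of the 6 libraries, a replicate block and leaving out each library were the alternatives. The labels do not say what a replicate number marks. Where a list matched several copies of a gene, each was counted.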

Additional observations from a re-analysis of the deposited data

How the results depend on the processing

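With other settings, between 2788 and 3651 of the 3671 calls were kept and 0 changed direction. Of 181 named genes, 172 were called in every setting that tested them. For the other 9 genes 34 values missed the threshold and 0 reversed. Apart from wdr12 and ebf3, these genes were chosen as called, by large changes or small adjusted p in the main fit. Their count is therefore no independent measure of stability. Calls higher and lower were 1865 and 1480 in the fit of the 6 libraries, 2308 and 1940 in DESeq2, 2001 and 1699 with RLE size factors, 1959 and 1674 with no filter, and 1988 and 1673 with 10 abundant genes left out; without single libraries they ranged from 1537 to 1994 and from 1251 to 1852. Same-numbered libraries deviated together with r of 0.221, -0.143 and 0.0141, so the numbers were not taken to pair them; with a replicate block the calls were 2014 and 1743. The block added a call of plp1b and removed those of arl6, slc1a6 and oxt. Without single libraries, the count for ribosome biogenesis ranged from 15 to 26, that for the oligodendrocyte lineage from 6 to 11, and the 801 calls between ebf3 GFP-positive and wdr12 GFP-negative cells from 169 to 1329; DESeq2 made 1501 there. The comparison with wdr12 GFP-negative cells and the genes outside the naming rule were added after seeing the data, with their alternatives. Medians near 0 changed sign when single libraries were left out: chromatin ranged from -0.34 to 0.0164 and glycolysis from -0.13 to 0.24, each with its sign turned without wdr12 GFP-positive replicate 3, and red cells from -0.58 to 0.0149, turned without ebf3 GFP-positive replicate 3. The cause was not tested. Symbols from the reference table were not run as an alternative, since it holds 0 matching gene identifiers. Effects of 2-fold were mostly not recovered in the simulation, where far fewer genes changed than were called here. That rate need not hold for these data, in which genes called lower reached down to 0.74 in size. With 3 libraries a group, the exact permutation tests of shares could not reach a p under 0.1.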
